A study of Mus musculus with 3 samples.

Results

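Fabp7-high satellite glial cells (SGCs) are the cells of the mouse dorsal root ganglion (DRG) in which the brain-type fatty acid-binding protein gene Fabp7 supplied at least 0.5% of all transcripts counted. A cell also had to hold at least 1 transcript of at least 2 of the 6 genes Acsbg1, Bcan, Mmd2, Slc4a4, Fmo1 and Kcnj10. It could hold at most 1 transcript in all of the Schwann cell genes Mag, Prx and Ncmap, at most 1 of the neuronal genes Snap25 and Rbfox3, and fewer than 10 of 7 interferon-response genes (Ifi27l2a, Isg15, Ifit1, Ifit3, Rtp4, Bst2 and Oasl2). In total 819 cells met the rule, of 9662 kept cells (those with 500 or more detected genes and no more than 20% mitochondrial transcripts) and of 11937 barcodes deposited.

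Single cells of lumbar DRGs (L3 and L4 of both sides) were captured in droplets, and each mRNA molecule was counted once through its unique molecular identifier (UMI). There were 3 libraries of male wild-type C57BL/6J mice aged 13 weeks, 1 from naïve, untreated mice, 1 from mice 7 days after spared nerve injury (SNI) and 1 from mice 14 days after SNI. The injury was made in both hindlegs. Each library pooled the 8 ganglia of 2 mice, so neither the mice nor the left and right sides can be separated. Conditions could not be tested against each other, since none was sampled in more than 1 library.

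SGCs are the glia that wrap the cell bodies of sensory neurons, several to a neuron. They take up potassium through inwardly rectifying channels such as Kir4.1, take up and recycle neurotransmitter, are coupled to each other by gap junctions, and make and export cholesterol and lipoproteins. After nerve injury they are known to change their expression and become reactive, and glial fibrillary acidic protein (Gfap), the intermediate filament protein that the study is about, is widely used to mark that state. The study questions that use for mice after nerve injury, where it saw no Gfap rise in SGCs.

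The naïve library held 340 members of 3152 kept cells, or 10.8% (exact Clopper-Pearson interval at 95%, 9.72% to 11.9%). At 7 days there were 216 members of 2682 kept cells (8.05%, 7.05% to 9.15%), and at 14 days 263 of 3828 (6.87%, 6.09% to 7.72%). The share was thus highest in the naïve library, and the naïve interval did not overlap those of the injured libraries, which overlapped each other. With Fabp7 required at 1% the naïve interval (4.99% to 6.65%) did overlap that of 7 days (4.37% to 6.09%). These intervals, and all that follow, are at 95% and cover counting error only, not the difference between mice, dissections or libraries. The share is one of dissociated cells and moves with how many other cells each library holds. It also moved with the rule. With no interferon limit it was 13.2%, 8.46% and 7.21% in the order naïve, day 7, day 14, because 76 naïve cells, 11 cells at 7 days and 13 at 14 days met every other criterion. Those cells were 18.3% of the naïve cells that had passed all earlier steps (14.7% to 22.3%), against 4.85% at 7 days (2.44% to 8.50%) and 4.71% at 14 days (2.53% to 7.92%).

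**Figure D1:**
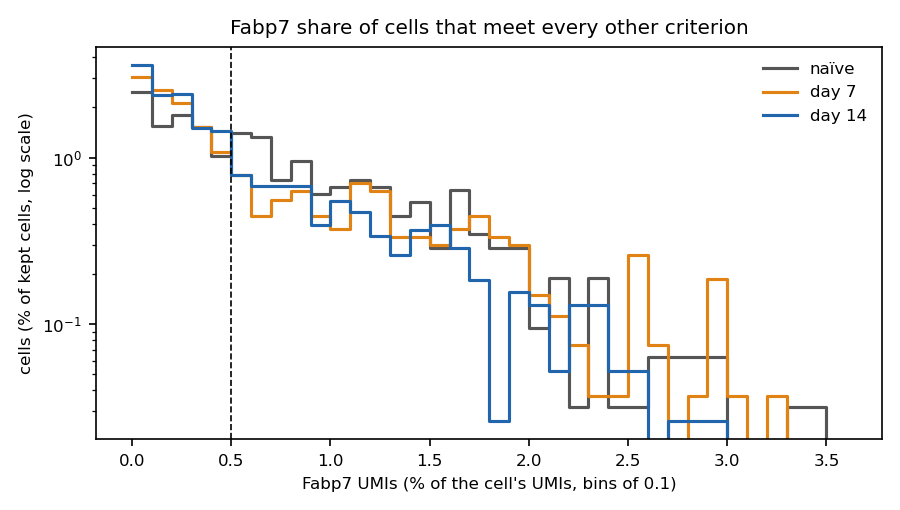
Fabp7 UMIs as a percentage of a cell's UMIs (x axis, bins of 0.1) against the number of such cells as a percentage of all kept cells of the library (y axis, log scale), for cells that met every criterion other than the Fabp7 threshold, with 1 line for each library and the threshold at 0.5% as a dashed line. The cells form a continuous range across the threshold, with no gap at 0.5% in any library.

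Members were selected on the levels of Fabp7 and the 6 partner genes, and by limits on 12 others, so the values of these genes describe the rule and were not tested. Among members the median Fabp7 share of a cell's UMIs was 1.08%, 1.21% and 1.03% in the order naïve, day 7, day 14, with maxima of 3.46%, 3.27% and 3.00%. There was no break at the threshold. In the naïve library 44 members lay between 0.5% and 0.6% and 32 cells that met all else lay between 0.4% and 0.5%. The corresponding numbers were 21 and 29 at 7 days, and 30 and 55 at 14 days. The Schwann and neuron limits of 1 UMI lay close: at 0 UMIs the share of kept cells was 8.44%, 6.26% and 4.89%, in place of 10.8%, 8.05% and 6.87%. Most members were far from the partner gene and interferon limits. All 6 partner genes were detected in 182, 152 and 177 members in the order naïve, day 7, day 14, and exactly 2 of them in 13, 4 and 5. The interferon genes summed to 0 UMIs in 118, 74 and 89 members, to 8 or 9 in 12, 7 and 8, and to 10 or 11 in 4, 2 and 1 cells just outside.

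In the order naïve, day 7, day 14 the members carried 2359626, 2073593 and 2463851 UMIs in all. A member held a median of 5858, 8431.5 and 8821 UMIs and 2497.5, 3196.5 and 3248 detected genes in the same order, so naïve members were shallower. Median mitochondrial shares were 14.3%, 15.6% and 16.0%. Levels are therefore given as CPM, the UMIs of a gene over all UMIs of a library's members, scaled to a total of 1000000, and shares of cells also after each cell was thinned to 3000 UMIs, which left 286, 209 and 251 members. Between libraries 1 to 6 cell barcodes were shared, and 0 of these were members in both. Scrublet called 4 of the 819 members as doublets.

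Outside the rule, the glial lineage factor Sox10 was at 395, 351 and 324 CPM in the members and at 8.12, 8.49 and 10.7 CPM in vascular and immune cells (492, 535 and 782 cells). The rule genes followed from the selection and do not check the label. Of these Acsbg1, an acyl-CoA synthetase, stood at 470, 557 and 466 CPM in the members and at 2.14, 3.59 and 4.24 CPM in those cells, and the potassium channel gene Kcnj10 (Kir4.1) at 586, 612 and 618 CPM, against 8.55, 11.1 and 13.6 CPM. Markers of other cell types were not evenly low. The 8 non-myelinating Schwann markers summed to 2695, 2776 and 2943 CPM in the members, above the 1527, 1454 and 1570 CPM of the other kept cells, with Ncam1, a neural adhesion gene, at 1185, 1206 and 1145 CPM in the members and Cdh19, a cadherin of the glial lineage list, at 412, 459 and 571 CPM. The 12 myelinating Schwann markers, 3 of them limited by the rule, summed to 1731, 1916 and 2022 CPM against 18103, 21852 and 17685 CPM in the other kept cells. The 15 neuronal markers, 2 of them limited by the rule, summed to 1160, 1142 and 1022 CPM against 8677, 8052 and 9385 CPM. The 8 fibroblast markers summed to 509, 625 and 1106 CPM, and 10 macrophage markers to 13.1, 90.7 and 64.9 CPM, with 3 of the 10 at 0 in the naïve members and none at 0 after injury. The 8 endothelial markers summed to 19.1, 39.5 and 28.8 CPM and the 5 red cell genes to 140, 42.4 and 44.2 CPM. At least 5 UMIs of another class's markers were found in 5 naïve members, 11 members of the 7-day library and 16 of the 14-day library.

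Among the genes that the rule did not use, 20 stood furthest above all other kept cells, neurons and Schwann cells included, in each of the 3 libraries. This ranking comes from the cells that the rule chose and is a description. Apoe, the lipoprotein that glia secrete with cholesterol, was at 39264 CPM in naïve members, 34100 at 7 days and 31625 at 14 days, against 4450, 4213 and 3367 CPM in the other kept cells. Lipid genes also included Apoc1, another apolipoprotein, and Elovl2, an elongase of polyunsaturated fatty acids. Notch-linked repressors were represented by Hes5 at 88.1, 65.6 and 70.6 CPM and Hey2 at 876, 815 and 705 CPM. The water channel gene Aqp4, well known from astrocyte endfeet, was at 84.8, 88.7 and 98.6 CPM, a log2 ratio of 3.30, 4.52 and 4.50 over the other kept cells. The remainder were surface and matrix genes (Fras1, Cdh15, Cspg5, Pdpn, Spon1, Cnmd, Fbln5, Ptprz1), Cacng4, an auxiliary subunit of glutamate receptors, Rlbp1, a retinoid-binding protein, Cdo1, a cysteine dioxygenase, Pmepa1, Catsperz and the uncharacterized 2900052N01Rik.

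Cells that failed only the interferon limit (76, 11 and 13) met the same Fabp7 and partner gene criteria as the members. The genes above are not compared with them here, so these genes need not be particular to the members. The other glia like the members were cells with at least 1 UMI each of Egr3, Ednrb and Fabp7 and the same Schwann, neuron and interferon limits, but with Fabp7 below 0.5%. There were 160, 119 and 162 of them. Cdh15, which encodes M-cadherin, was at 73.7, 77.2 and 73.5 CPM in the members and 1.11, 1.10 and 0.761 CPM in the Egr3 and Ednrb glia. Hes5 had 0 UMIs in the latter in every library, so that the members were at least 4.73, 4.31 and 4.95 higher on the log2 scale against a floor of 3 counts per library. The Cdh15 levels in the Egr3 and Ednrb glia lay below that floor and rest on very few UMIs. Aqp4 was higher in the members by 3.67, 5.33 and 3.21, whereas Ptprz1, a receptor phosphatase, differed by 0.82, 0.80 and 0.50. The Aqp4 level in the Egr3 and Ednrb glia at day 7 also lay below that floor, so the ratio of 5.33 rests on very few UMIs.

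**Figure D2:**
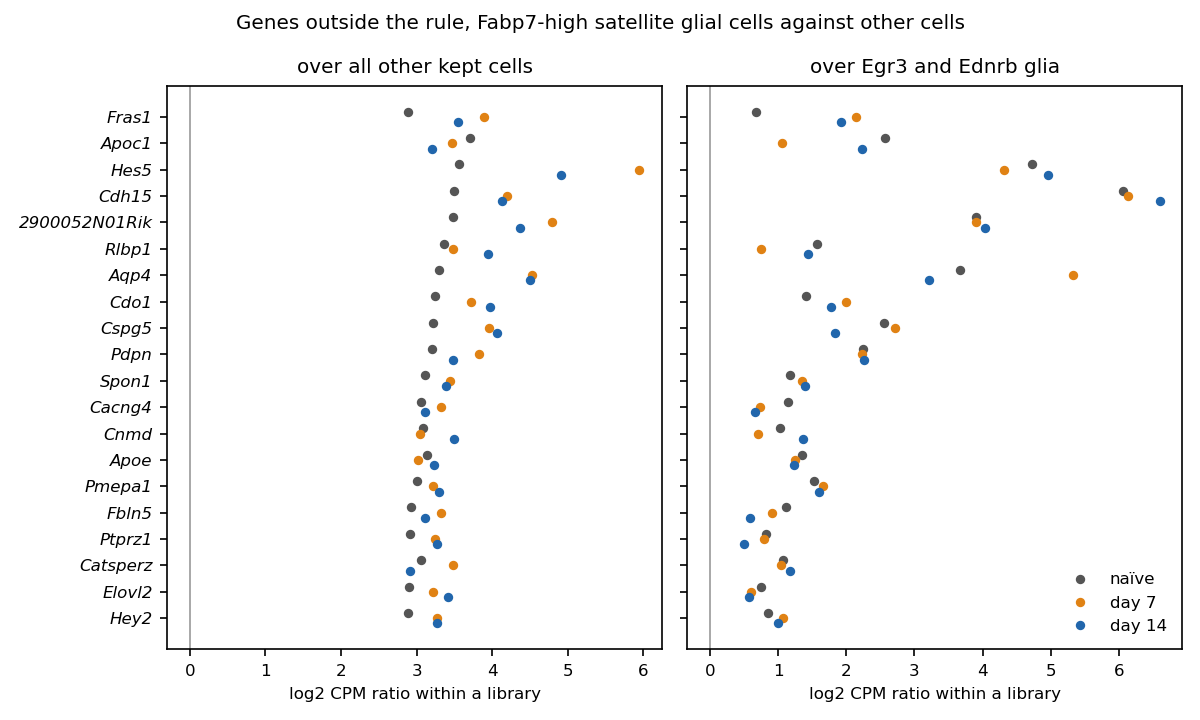
Log2 CPM ratios of the 20 named genes outside the rule within each library (x axis), members over all other kept cells on the left and over the Egr3 and Ednrb glia on the right, with 1 point for each of the 3 libraries. The Hes5 points on the right are lower bounds. The Cdh15 points and the day 7 Aqp4 point there rest on very few UMIs in the Egr3 and Ednrb glia. The ratios over other kept cells run from 2.89 to 5.95, while over the Egr3 and Ednrb glia Cdh15, Hes5, Aqp4 and 2900052N01Rik stand above 3 in all libraries and the others lie below 3.

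For the question of what differed after nerve injury, 3453 genes outside the rule with a mean of at least 50 CPM over the 3 libraries were compared, and a gene counts as higher or lower here at a ratio of at least 1.5-fold. At 7 days 22 genes were higher (0.637%) and 23 lower (0.666%) than in naïve members. At 14 days 52 genes were higher (1.51%) and 56 lower (1.62%). In both injured libraries 18 genes were higher (0.521%) and 9 lower (0.261%). Both comparisons use the same naïve library, so a deviation of that library enters both. The median log2 ratio of all genes tested was -0.03 at 7 days and -0.02 at 14 days.

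Serpina3n, a secreted serine protease inhibitor known as a marker of reactive glia, showed the widest difference at 14 days apart from Dcn, a fibroblast gene described below. It was at 44.9 CPM in naïve members (106 UMIs), 108 at 7 days (224 UMIs) and 247 at 14 days (608 UMIs). The 3 libraries were ordered and their Poisson intervals did not overlap. Over naïve members the log2 ratio was 1.27 at day 7 (exact conditional interval 0.93 to 1.61) and 2.46 at 14 days (2.16 to 2.77), and 14 days exceeded 7 days by 1.19. A Serpina3n UMI was present in 68 of 340, 87 of 216 and 160 of 263 members, and in 12.6%, 23.9% and 37.8% of them with every cell at 3000 UMIs. Vascular and immune cells, at medians of 3358, 4406 and 4259.5 UMIs, had a UMI in 0.407%, 1.31% and 2.69% of cells. In the Egr3 and Ednrb glia Serpina3n went from 14.4 to 36.4 and 63.2 CPM, while all other kept cells were at 66.7, 74.6 and 102 CPM.

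Gfap itself was nearly absent from the members. Naïve members held 4 Gfap UMIs in 3 cells, 7-day members 6 UMIs in 4 cells and 14-day members 18 UMIs in 17 cells, which is 1.70, 2.89 and 7.31 CPM. The day 7 ratio over naïve was 0.77 on the log2 scale with an interval of -1.30 to 3.04, so no difference was detectable at this depth. At 14 days it was 2.11 (0.51 to 4.13). The shares of members with a UMI were 0.882%, 1.85% and 6.46%, and thinned to 3000 UMIs 0.350%, 1.44% and 1.99%, against 0.203%, 0% and 0.256% in unthinned vascular and immune cells, where the 0% was 0 of 535 cells and allows, at 3 counts, a share of cells with a UMI of up to 0.561%. Both Gfap ratios depended on a handful of cells. Over 12 alternatives the day 7 value ran from -0.084, with Fabp7 required at 1% of UMIs, to 2.76, with at least 3 of the 6 partner genes. The day 14 value ran from 0.57, with a pseudocount of 10 CPM, to 4.01, with at least 3 of the 6 partner genes.

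Of the 32 genes on the reactive glia list, 9 were tested. Serpina3n alone passed the fold, at either time. The list's median was 0.13 at 7 days and 0.46 at 14 days, with 8 and 6 of the 9 genes above 0. Of all 3453 tested genes 1575 and 1631 were above 0. The medians of these 9 genes were 0.28 and 0.43 in the Egr3 and Ednrb glia. They were 0.31 and 0.32 in vascular and immune cells, and 0.16 and 0.31 in all other kept cells. The shift was thus not particular to the members. Stat3, the transcription factor of gp130 cytokine signalling, was at 152, 184 and 220 CPM, and Cd44, a hyaluronan receptor, at 158, 198 and 217 CPM. The intermediate filament gene Vim went from 2396 to 2618 and 2992 CPM. Other tested genes of the list went down: 1 was below 0 at 7 days and 3 at 14 days, with lowest ratios of -0.37 and -0.31. Stat3, Cd44 and Vim were ordered from naïve to 14 days without reaching 1.5-fold. C4b, a complement component that is not on the list, did so at 14 days, at 103, 132 and 233 CPM (log2 ratio 0.37 at 7 days and 1.18 at 14 days), and the share of members with a C4b UMI at 3000 UMIs was 25.2%, 29.7% and 44.2%. Macrophage markers were higher in the injured libraries as given above, and their part in the C4b values was not tested. Over 12 alternatives the Serpina3n ratio ran from 0.99 to 1.40 at 7 days and from 2.00 to 2.58 at 14 days. The C4b ratio ran from 0.065 to 0.51 and from 0.83 to 1.36. Among these alternatives was leaving out members with at least 5 UMIs of another class's markers. That setting was chosen after seeing the data and keeps members with fewer such UMIs.

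Clock genes formed the list with the largest share of higher genes among the 15 functional lists. Of the 19 circadian genes 7 were tested, 4 were higher at 7 days and 5 at 14 days, 0 were lower, and the list medians were 0.62 and 0.92. Dbp, a clock output factor, was at 23.7 CPM in naïve members, 61.3 at 7 days and 90.1 at 14 days (log2 ratios 1.37 and 1.92). Nr1d1, which encodes the repressor REV-ERBα, was at 38.1, 69.4 and 87.7 CPM and Per3, a period gene, at 47.5, 81.0 and 95.4 CPM. Tef, a relative of Dbp, was at 75.4, 116 and 114 CPM. Arntl (BMAL1), the activator that Nr1d1 represses, ran the other way at 47.9, 18.8 and 17.9 CPM and was below the level filter, with log2 ratios of -1.35 (-1.91 to -0.81) and -1.42 (-1.96 to -0.91). These genes are known to change through the day. The hour at which tissue was taken is not given in the sources used here, so hour and injury cannot be told apart. In all other kept cells the list medians were 0.67 and 0.88, with ratios of 0.98 and 1.29 for Dbp, 0.95 and 1.20 for Nr1d1 and 0.78 and 0.98 for Per3. The vascular and immune cells had lower list medians, 0.068 and 0.42, and Nr1d1 there was at ratios of -0.10 and 0.31. In the glia that failed only the interferon limit the medians were 0.53 and 0.070, from 11 cells at 7 days and 13 at 14 days.

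E-boxes (CACGTG, a palindrome that reads the same on either strand) are the sites through which the clock activators act. In RefSeq promoter windows of GRCm38.p6, from 250 bases before to 50 after a start, 8.09% of 27025 genes had one, as did 1 of the 7 tested clock genes, Tef. The Tef window at chr15:81811164-81811463 on the plus strand is printed to show it, with the E-box in capitals. The match is a description of letters and not of binding, and a gene with no match may hold E-boxes outside this window.

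Tef: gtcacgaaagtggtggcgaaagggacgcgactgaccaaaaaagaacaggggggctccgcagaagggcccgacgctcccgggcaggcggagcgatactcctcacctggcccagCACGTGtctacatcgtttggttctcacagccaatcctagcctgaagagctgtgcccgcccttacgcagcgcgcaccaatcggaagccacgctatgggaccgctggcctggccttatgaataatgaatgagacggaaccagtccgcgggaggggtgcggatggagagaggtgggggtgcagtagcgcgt

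Several chaperone genes were lower after injury, while the early response genes were mixed. Of the 32 genes on this list of both kinds 17 were tested. At 7 days 3 were lower and 0 higher, at 14 days 5 were lower and 0 higher, and the list medians were -0.29 and -0.35. Hspa1a, the inducible HSP70, was at 139 CPM in naïve members, 67.0 at 7 days and 64.5 at 14 days, and its near-identical copy Hspa1b at 253, 186 and 151 CPM. Reads of these copies may not be told apart, so the split between them is uncertain. Hspa8, the constitutive HSP70, stood at 1374, 968 and 852 CPM. Hsph1, an HSP110 co-chaperone, was at 72.1, 43.9 and 41.0 CPM. Ahsa1, which activates HSP90 and is not on the list, was at 82.2, 38.1 and 52.8 CPM. The naïve library was the highest for each of these 5 genes. It was not so for the whole list: Egr1, an immediate early transcription factor, was at 174, 217 and 227 CPM and Fos at 150, 201 and 142 CPM. Egr3, a related zinc finger factor, was at 180, 87.8 and 84.0 CPM (log2 ratios -1.04 and -1.10), with a UMI in 35.3%, 16.7% and 15.1% of members at 3000 UMIs.

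These genes are known to respond to warming and to the enzymes of a dissociation, and the handling of each library cannot be told apart from its condition. The other kept cells had ratios of -1.29 and -1.54 for Hspa1a, -0.37 and -0.50 for Hspa8 and -0.50 and -1.12 for Egr3. Heat shock elements were searched as GAANNTTC, which is its own reverse complement. They were present in 9.04% of 27025 genes and in 7 of the 12 tested genes of the list with a window, namely Dnaja1, Hspa1a, Hspa1b, Hspd1, Hspe1, Hsph1 and Jun. The windows of Hspd1 and Hspe1 overlap head to head, and those of Hspa1a and Hspa1b are near-identical. The 2 genes of either pair are thus not independent. The Hspa1a window at chr17:34972107-34972406 on the minus strand is shown with the element in capitals, 104 bases before the start.

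Hspa1a: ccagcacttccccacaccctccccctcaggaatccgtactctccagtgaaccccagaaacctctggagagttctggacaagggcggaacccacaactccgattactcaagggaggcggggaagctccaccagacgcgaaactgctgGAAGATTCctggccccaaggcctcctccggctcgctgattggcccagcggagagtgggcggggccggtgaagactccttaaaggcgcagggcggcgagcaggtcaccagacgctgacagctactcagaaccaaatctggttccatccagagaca

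**Figure D3:**
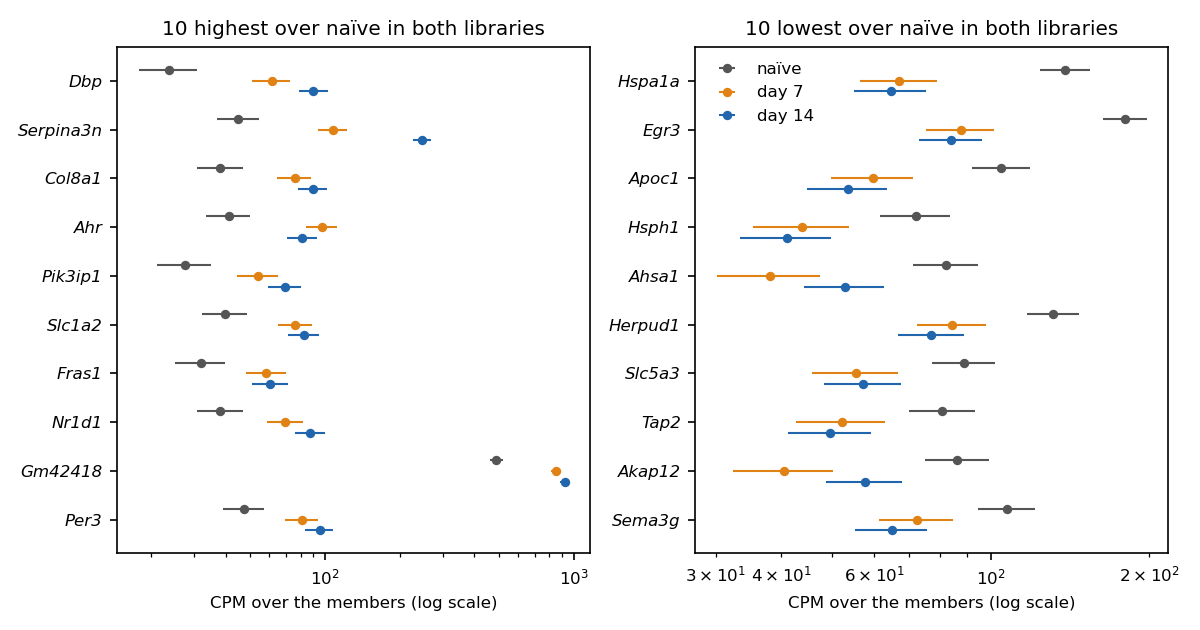
CPM over the members (x axis, log scale) of the 10 genes with the highest and the 10 with the lowest smaller ratio over the naïve library, by library, with exact 95% Poisson intervals for counting error. On the left both injured libraries lie above the naïve library for each gene, from Dbp to Per3, and on the right both lie below it, from Hspa1a to Sema3g.

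Other genes that were higher in both injured libraries included Slc1a2, which encodes the glutamate transporter GLT-1. It was at 39.8, 76.2 and 82.4 CPM (log2 ratios 0.94, interval 0.56 to 1.32, and 1.05, 0.69 to 1.42). All other kept cells held 5.51, 5.87 and 6.40 CPM, with ratios of 0.09 and 0.22, and the Egr3 and Ednrb glia had 7.75, 16.6 and 15.2 CPM. With the rule applied to cells thinned to 3000 UMIs the Slc1a2 ratios were 0.49 and 0.34 and no longer reached 1.5-fold. Ahr, the aryl hydrocarbon receptor, was at 41.1, 97.4 and 81.2 CPM and Pik3ip1, an inhibitor of PI3 kinase, at 27.5, 54.0 and 69.4 CPM. The matrix genes Col8a1, a short-chain collagen, and Fras1, a basement membrane protein, were at 38.1, 75.7 and 89.7 CPM and at 31.8, 58.4 and 60.5 CPM. The last of the 10 was Gm42418, a predicted gene that overlaps ribosomal RNA sequence, at 490, 851 and 920 CPM, of which 1 cell supplied 10.9% at 7 days. Of the 20 ratios of these 10 genes, 17 passed the fold under each of 12 alternatives, the others being both of Slc1a2 and the day 7 ratio of Fras1.

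Genes that were lower in both included Apoc1 at 105, 59.8 and 53.6 CPM (-0.81 and -0.97), Herpud1, a gene of the endoplasmic reticulum stress response, at 131, 84.4 and 77.1 CPM, and Slc5a3, a myo-inositol transporter, at 89.0, 55.5 and 57.2 CPM. The unthinned share of members with an Apoc1 UMI did not fall, at 25.9%, 29.2% and 29.7%, with naïve members shallower. At least 5 Apoc1 UMIs were held by 13, 5 and 4 members, and 1 naïve cell held 47. Akap12, a scaffold of protein kinase A, was at 86.5, 40.5 and 57.6 CPM. Tap2, a peptide transporter of antigen presentation, stood at 80.9, 52.1 and 49.5 CPM, and Sema3g, a secreted semaphorin, at 107, 72.3 and 64.9 CPM, just short of 1.5-fold at 7 days. In each case the naïve library was the highest. Of the 10 lowest genes, which also include Hspa1a, Egr3, Hsph1 and Ahsa1, only Hspa1a, Egr3 and Hsph1 kept every call under the 12 alternatives.

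Most cholesterol synthesis genes lay below 0, in small steps. Of the 26 listed genes 21 were tested. At 7 days 0 passed the fold in either direction, with 19 of the 21 below 0 and a median of -0.27, and at 14 days 5 were lower and 0 higher, with 16 below 0 and a median of -0.34. Of all 3453 tested genes 1878 were below 0 at 7 days and 1822 at 14 days. The 5 were Pmvk, Idi1, Fdft1, Msmo1 and Tm7sf2, enzymes of the mevalonate pathway and of squalene and sterol synthesis. Idi1 was at 355, 298 and 215 CPM, Fdft1 at 257, 197 and 152 CPM and Msmo1 at 758, 575 and 496 CPM. These 3 genes were ordered from naïve to 14 days. Hmgcs1, the first committed step of the pathway, was at 1599, 1563 and 1302 CPM, a log2 ratio of -0.30 at 14 days (-0.36 to -0.23). In all other kept cells the list's medians were -0.28 and -0.26. A sterol regulatory element searched as TCACNCCAC on both strands was present in 1.44% of 27025 genes and in 1 of the 14 tested sterol genes with a window, Hmgcs1 at chr13:119690101-119690400 on the plus strand, printed with the element in capitals.

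Hmgcs1: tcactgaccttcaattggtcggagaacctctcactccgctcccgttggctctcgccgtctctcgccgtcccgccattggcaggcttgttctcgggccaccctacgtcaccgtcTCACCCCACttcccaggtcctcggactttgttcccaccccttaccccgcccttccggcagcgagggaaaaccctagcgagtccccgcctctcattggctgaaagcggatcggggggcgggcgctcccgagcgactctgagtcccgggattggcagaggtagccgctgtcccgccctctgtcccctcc

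Most other lipid genes stayed within 1.5-fold. Of 12 tested genes of fatty acid synthesis and 13 of its oxidation 0 passed the fold at either time. Over all 3453 tested genes 0.637% were higher and 0.666% lower at 7 days, and 1.51% and 1.62% at 14 days. At such shares lists of this size may hold no called gene, so the count does not set them apart. The desaturase genes Scd1, at 2639, 2704 and 2669 CPM, and Scd2, at 6715, 7053 and 7202 CPM, moved by at most 0.10 on the log2 scale. Acly, which makes cytosolic acetyl-CoA, was at 284, 224 and 190 CPM, a ratio of -0.58 at 14 days that fell just short. Among 16 tested lipid carriers Apoe was at ratios of -0.20 and -0.31 and Abca8b, a lipid transporter, at 0.30 and 0.58. Apod passed the fold downwards at 7 days (213, 121 and 251 CPM), but 1 naïve cell held 66.4% of the naïve Apod UMIs, and with the top cell of each library left out the ratio was 0.64.

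Some genes of antigen presentation by MHC class I were higher at 14 days, a call that depended on the rule. Of 14 listed genes 5 were tested, and 3 were higher at 14 days against 0 at 7 days, while Tap2 was lower at both times. B2m, the light chain, was at 751, 736 and 1142 CPM, H2-K1 at 365, 414 and 588 CPM and H2-D1 at 245, 272 and 425 CPM. Naïve and 7-day members were close and the 14-day members above both. The log2 ratios at 14 days were 0.60 (0.52 to 0.69), 0.69 (0.56 to 0.81) and 0.79 (0.65 to 0.94), against 0.02, 0.21 and 0.11 in all other kept cells. The Egr3 and Ednrb glia were at 687, 653 and 946 CPM for B2m. The interferon limit bears on this: it removed 76 naïve cells, which held 1661 CPM of B2m, and without it 0 of the 5 genes were higher at 14 days and the list median was 0.29 in place of 0.60. With Fabp7 required at 1%, or with the rule on cells thinned to 3000 UMIs, 1 of the genes was higher, and 2 were without members holding markers of another class. Macrophage markers, at 13.1, 90.7 and 64.9 CPM as given above, were higher in the injured libraries, and their part in these values was not tested. The 4 tested interferon-response genes outside the rule had no call at either time, with list medians of -0.09 and 0.002. The interferon limit bears on these genes too, so the absence of calls may follow from the selection. Without that limit the medians were -0.43 and -0.52, with 1 lower gene at each time. In all other kept cells they were -0.38 and -0.58.

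Among the tested genes of the homeostatic functions of SGCs, Car2 and Slc1a2 alone reached 1.5-fold. Over all 3453 tested genes 0.637% were higher and 0.666% lower at 7 days, and 1.51% and 1.62% at 14 days. For 10 tested ion-handling genes the list had medians of 0.03 and 0.15 with 0 and 1 higher genes, the latter being Car2, a carbonic anhydrase, at 64.4, 96.0 and 99.4 CPM. Atp1b1, a sodium pump subunit, was at 136, 201 and 195 CPM, against ratios of -0.36 and -0.16 in all other kept cells. Of 9 tested genes of transmitter uptake Slc1a2 alone passed the fold. Glul, glutamine synthetase, was at 966, 926 and 761 CPM and Slc1a3 (GLAST) at 209, 187 and 179 CPM. For the gap junctions, Gja1 (connexin 43) was at 289, 296 and 209 CPM, a ratio of -0.46 at 14 days (-0.63 to -0.30), and Gjc3 at 253, 245 and 309 CPM. Neither connexin reached 1.5-fold.

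Of 26 tested glial lineage genes 0 were called at either time, with medians of 0.07 and 0.13. Since 1.51% of all tested genes were higher and 1.62% lower at 14 days, lists of this size may hold no called gene. S100b, a calcium-binding protein, went from 412 to 336 and 289 CPM. Sox10, the lineage factor, was at 395, 351 and 324 CPM. Of 16 tested genes of the matrix list, which does not include Col8a1 and Fras1, 0 were called. On the fibroblast marker list, which holds Dcn and collagens, 4 genes were tested. At 14 days 3 of these were higher and 0 lower, Dcn among them, and at 7 days Dcn alone was lower. Without members holding markers of another class 2 were tested, and 2 were higher at 14 days. Of 14 tested receptor genes 1 was called, S1pr1, a sphingosine phosphate receptor, at 88.6, 68.0 and 53.2 CPM (-0.74 at 14 days). The endothelin receptor Ednrb was at 1440, 1658 and 1709 CPM.

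**Figure D4:**
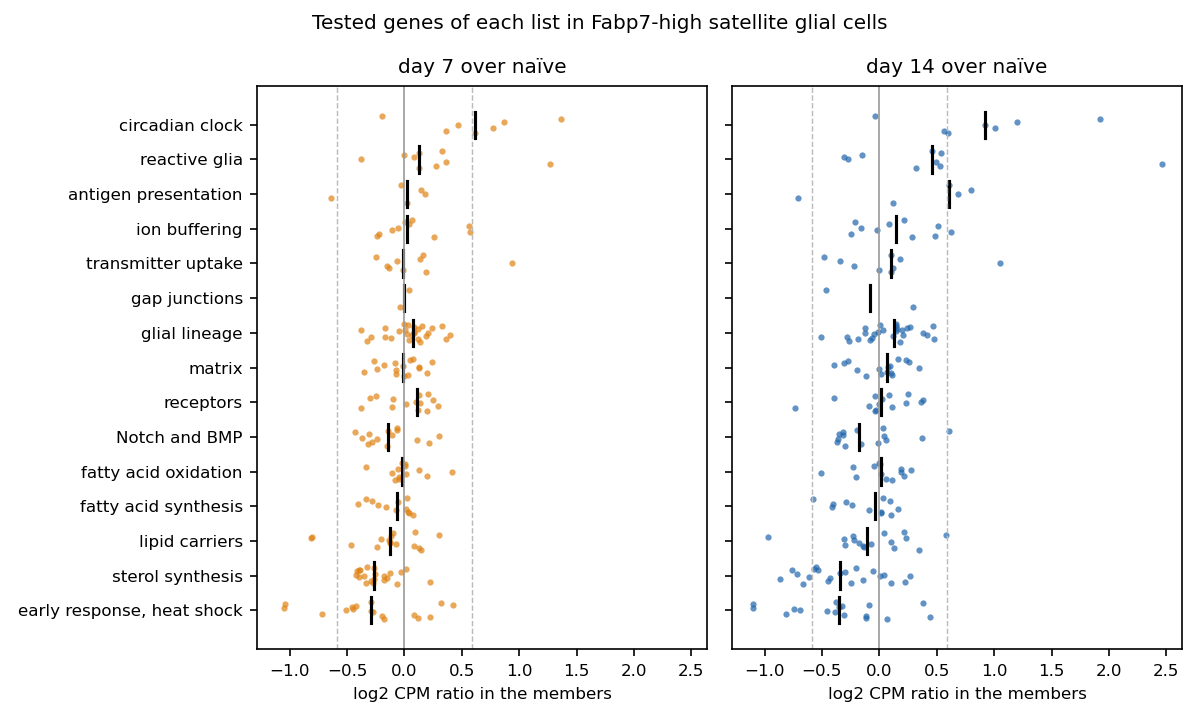
Log2 CPM ratios over the naïve library (x axis) of each tested gene of 15 lists in the members, at 7 days on the left and 14 days on the right, with a black bar for the list median and dashed lines at 1.5-fold. The clock list has the highest medians (0.62 and 0.92) and the early response and heat shock list the lowest (-0.29 and -0.35), next to sterol synthesis, while the glial lineage, matrix and receptor lists are centred near 0.

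The direct comparison of 14 with 7 days shares a library with each comparison above. In it 25 genes were higher (0.724%) and 13 lower (0.376%). Besides Serpina3n and C4b, the leading higher genes were Rab6b, a Golgi GTPase, at 51.7, 38.1 and 71.4 CPM, Tcaf1, a partner of TRP channels, at 83.5, 70.4 and 119 CPM, Slitrk5, a synaptic adhesion gene, at 59.8, 57.9 and 97.4 CPM, and the Notch target Hes1 at 67.0, 60.8 and 102 CPM. Hes1 passed the fold against both other libraries, but its ratio over naïve, 0.61, fell short of it under 7 of 12 alternatives and was lowest, at 0.34, with the rule on thinned cells. Id2, a BMP-responsive inhibitor of differentiation, was at 164, 127 and 213 CPM. For these 5 genes 7 days was the lowest library. Most of the Notch and BMP list went the other way. Of its 14 tested genes 11 were below 0 at 7 days and 9 at 14 days over naïve, with medians of -0.15 and -0.18. For 14 over 7 days 9 of the 14 were below 0 (median -0.07) and 2 were higher, while 1682 of all 3453 tested genes were below 0. Among lower genes, Igfbp3, which binds insulin-like growth factors, was at 79.7, 55.5 and 33.3 CPM, and Ndufa1, a subunit of respiratory complex I, at 103, 100.3 and 61.3 CPM. Cdkn2c, a cyclin-dependent kinase inhibitor, was at 54.3, 95.5 and 51.5 CPM, with 21.2% of its UMIs at 7 days in 1 cell. The rest were Tmc7, Kirrel, Phpt1, Acyp2 and AC160336.1, at log2 ratios between -0.84 and -0.62.

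Dcn, which encodes the fibroblast proteoglycan decorin, headed that comparison with 58 UMIs in naïve members, 12 at 7 days and 412 at 14 days, but 3 cells held 92.5% of the 14-day UMIs and 3 held 79.3% of the naïve ones. Its 14-day ratio over naïve was 2.77, and 4.04 without the top cell of each library. Leaving out members with markers of another class gave 0.99, but Dcn is itself one of those markers, so that setting removes its cells by construction. Proliferation genes were also the property of few cells. At least 5 UMIs of Mki67, Top2a, Cenpf, Cdk1, Ccnb1 and Birc5 together were present in 0 of 340 naïve members (which at 3 counts limits the share of cells with that many UMIs to 0.882%, not of cells that divide, and naïve members were shallower), in 4 of the 216 day 7 members and in 3 of the 263 day 14 members. Of the 4 at 7 days 1 also held at least 5 UMIs of another class's markers, and of the 3 at 14 days 0 did. Top2a, a topoisomerase of dividing cells, thus had 159 UMIs in 4 cells at 7 days and 25 UMIs in 6 cells at 14 days.

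By the lowest of the 3 libraries' values, the variance over mean among members was largest for Malat1 and Apoe. In single libraries other genes exceeded them, among them Apod in naïve members (83.3), Gm42418 over Apoe at 7 days, and Apod and Dcn at 14 days (39.3 and 39.0). At 3000 UMIs per cell the variance over mean of Apoe was 28.2 in naïve members, 19.9 at 7 days and 19.5 at 14 days, and that of Malat1, a nuclear RNA, 34.9, 26.5 and 21.4, where counting alone gives about 1. Both were thus least even in the naïve library. Gm42418 went the other way, at 2.91, 20.1 and 10.3. The next among the tested genes were Cst3, a secreted protease inhibitor (4.81, 3.86 and 7.04), Dbi, an acyl-CoA-binding protein (3.90, 3.42 and 3.74), Gatm, which starts creatine synthesis, Scd1 and Scd2. Tyrp1, a gene of melanin synthesis, was detected in a minority, with a UMI in 10.1%, 9.09% and 12.4% of members at that depth against 0.407%, 0.561% and 0.384% of vascular and immune cells before thinning, and a variance over mean of 3.04, 2.41 and 2.64.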

How the data were processed

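Single-cell 3′ RNA sequencing of mouse DRGs was analysed in 3 libraries, 1 for each condition. The deposited values are whole, unnormalized UMI counts for each gene in each barcode that had been called a cell. The submitters' processing notes name Cell Ranger 3.0.2 and mm10; the annotation is not given in the sources used here, and the paper gives no single-cell methods. Its Methods name younger, female mice and a ligation, whereas the mice, sex, age and injury given here are those of the sample labels.

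Counts were read with Python 3.11.15, scipy 1.17.1 and pandas 2.3.3, over 31053 genes. UMIs were summed over the members of a library and divided by all their UMIs (CPM, no pseudocount). Ratios have exact conditional binomial intervals, sums exact Poisson and shares exact Clopper-Pearson intervals, at 95%. Member totals of 2073593 to 2463851 UMIs set the precision. PCR copies were removed through the UMIs, but cells with many UMIs of a gene make the true spread wider than these intervals. With 1 library for each condition there was no test and no p-value. A call was a ratio of 1.5-fold among genes with a mean of at least 50 CPM, outside the 19 rule genes and the mitochondrial genes. A sum of 0 was replaced by a floor of 3 counts per library. Vascular and immune cells were other kept cells with at least 10 UMIs of endothelial, mural and macrophage markers that met the Schwann and neuron limits; these limits were added after the set was seen to hold neuronal transcripts. No cells were clustered and doublets were kept, with Scrublet (scanpy 1.11.5) as an alternative. The scripts were tested on simulated data.

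Named genes were those of the lists where a list is described, the 10 highest and 10 lowest by the smaller ratio over the naïve library, 8 each way for 14 over 7 days, the 20 highest over other kept cells, the 10 with the largest variance over mean, and Gfap; some genes that this rule names are not reported here. Arntl and Top2a were named although below the level filter, after their values were seen, and so was Id2. The members and lists were chosen with earlier results of these data known. Alternatives covered the cell filter, each limit of the rule, doublets, depth, scaling, the level filter, the fold and a pseudocount.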

Additional observations from a re-analysis of the deposited data

How the results depend on the processing

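No paired analysis was possible because there is a single library of each condition. Of 54 named ratios past the fold, each under 12 alternatives, 644 of 648 values kept their sign. The others were Gfap at 7 days, -0.084 with Fabp7 at 1%, and Apod at 7 days, 0.76 without Scrublet calls, 0.79 without members holding markers of another class and 0.64 without the top cell of each gene. The last 2 settings were chosen after seeing the data.

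The share of members (naïve, day 7, day 14) was 2.16%, 0.554% and 0% with cells of 1000 or more genes and no more than 10% mitochondrial UMIs, which left too few members for ratios. It was 14.2%, 11.7% and 11.2% with Fabp7 at 0.25%, 5.77%, 5.18% and 3.66% with Fabp7 at 1%, 8.44%, 6.26% and 4.89% with Schwann and neuron limits of 0 UMIs, 20.9%, 12.7% and 10.7% of cells thinned to 3000 UMIs, and 13.2% in the naïve library without the interferon limit. The naïve share was the highest under each of these settings.

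Counts of genes are given as higher and lower, at 7 days, at 14 days and for 14 over 7 days. They were 72 and 79, 84 and 112, and 82 and 69 with the rule on thinned cells. A level of 20 CPM gave 132 and 117, 203 and 153, and 122 and 87, and no level filter 2560 and 1861, 2608 and 2161, and 2266 and 2223. A fold of 2 gave 3 and 5, 14 and 4, and 3 and 0. With Fabp7 at 1% there were 35 higher at 7 days and 27 lower for 14 over 7 days, with limits of 0 UMIs 36 lower at 7 days and 28 lower for 14 over 7 days, and with the mean of single-cell CPM 42 lower at 7 days. A pseudocount of 10 CPM gave 14 lower at 7 days, 33 higher at 14 days and 6 lower for 14 over 7 days. The cause of these moves was not tested, other than that a looser level filter tests more genes and a fold of 2 asks more of each. Scaling by the median of ratios moved the libraries by at most 0.03 on the log2 scale. Depth limits genes of few UMIs, such as Gfap.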

Other observations

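Cxcl10, a chemokine gene induced by interferons, was below the level filter and present in few members, with 32 UMIs in 15 naïve members, 79 in 20 members at 7 days and 202 in 32 members at 14 days, or 13.6, 38.1 and 82.0 CPM. One cell held 34.4%, 22.8% and 17.3% of these UMIs. Cxcl10 was not part of the interferon limit. In the cells that failed only that limit it was at 125, 84.9 and 191 CPM. In the Egr3 and Ednrb glia it was at 43.2, 37.5 and 47.9 CPM. This gene was chosen after its values were seen.

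In the cells that met every criterion except the interferon limit, which numbered 76, 11 and 13 in the order naïve, day 7, day 14, Serpina3n was at 80.3, 481 and 275 CPM.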
